A study of Homo sapiens with 12 samples.

Results

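The 39 HOX genes of clusters A to D were described on 12 dual-colour arrays from 2 human cell lines. Members were all probes whose RefSeq identifier maps to a symbol made of HOXA, HOXB, HOXC or HOXD and a number. They are 50 of the 41000 probes, 29 genes with 1 probe, 9 with 2 and 1 (HOXB3) with 3. Cluster A has 11 genes and 14 probes, cluster B 10 and 16, cluster C 9 and 11, and cluster D 9 and 9.

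HOX genes encode homeodomain transcription factors that set position along the body axis. In each cluster they lie in the order of their paralog numbers, with low numbers used anteriorly and early and high numbers posteriorly and late, and trithorax (MLL) and Polycomb proteins keep them on or off. Fusions of MLL to MLLT10 recruit the histone methyltransferase DOT1L and keep HOXA genes such as HOXA9 active in leukemia.

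The study asked which genes depend on MLLT10 and DOT1L in Wnt-responding cells. Ls174T cells come from a colorectal cancer and signal through Wnt without added ligand, and HEK293T is a human embryonic kidney line that responds to added Wnt. All cells received 15 nM siRNA for 72 h. Ls174T cells received siRNA to β-catenin, MLLT10, BRG1 (the SMARCA4 product, a chromatin remodelling ATPase), p300 (the EP300 product, a histone acetyltransferase) or a control. HEK293T cells with control siRNA were grown for 9 h in control conditioned medium or Wnt3A medium, and those with siRNA to MLLT10, DOT1L, BRG1 or p300 in Wnt3A medium only. RNA of each condition was hybridised against a universal reference RNA on 1 array, apart from β-catenin-depleted RNA, which was set directly against si-control RNA on a dye-swapped pair of arrays that counts as 1 replicate. Each condition thus has 1 biological replicate, so no test between conditions was possible and no p-value is given. All values are log2 ratios of sample over reference, or log2 changes between 2 such ratios, and a probe is called past 2-fold in Ls174T and past 1.5-fold in HEK293T cells. Values after ± are the error of the scanner program, which leaves out the spread between cultures. In bulk RNA, fewer cells using a gene and less RNA per cell cannot be told apart.

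Each siRNA target was lower on the array that should lack it. The changes were -2.71 and -2.49 for the 2 CTNNB1 probes in Ls174T cells, -1.42 and -1.76 for the brighter MLLT10 probe in Ls174T and HEK293T cells, -1.41 and -1.97 for 2 of the 3 DOT1L probes (0.17 for the third), -2.53 to -2.24 and -4.00 to -3.95 for SMARCA4, and -0.60 and -1.21 (Ls174T) and -2.35 and -2.83 (HEK293T) for EP300. All 9 colon epithelium markers were well above background in Ls174T cells and 7 of them in HEK293T cells too, and the 4 kidney line markers on the array were so in HEK293T cells against 1 of 4 in Ls174T cells. The leukocyte markers CD14 and CD3E were well above background in both lines too, with PTPRC in neither, so the flag marks signal above background and does not show that a gene is expressed. The 5 slides mixed conditions, and the si-control Wnt3A array, against which each HEK293T knockdown was set, lay alone on its slide.

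The number of HOX genes well above background differed most between the lines in clusters C and D. In HEK293T cells in control medium, 35 of the 39 genes were well above background, all but HOXB1, HOXC4, HOXD4 and HOXD12, and 34 were so on all 6 HEK293T arrays. In Ls174T si-control cells 14 genes were so, and the same 14 on all 4 Ls174T reference arrays. They were 7 of cluster A (HOXA3, HOXA5, HOXA7, HOXA9, HOXA10, HOXA11 and HOXA13), 6 of cluster B (HOXB3, HOXB5, HOXB6, HOXB7, HOXB9 and HOXB13), HOXC13 alone in cluster C, and none in cluster D. The sample channel was above background for 63.8% of all features on the Ls174T si-control array and for 74.1% on the HEK293T control medium array.

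**Figure D1:**
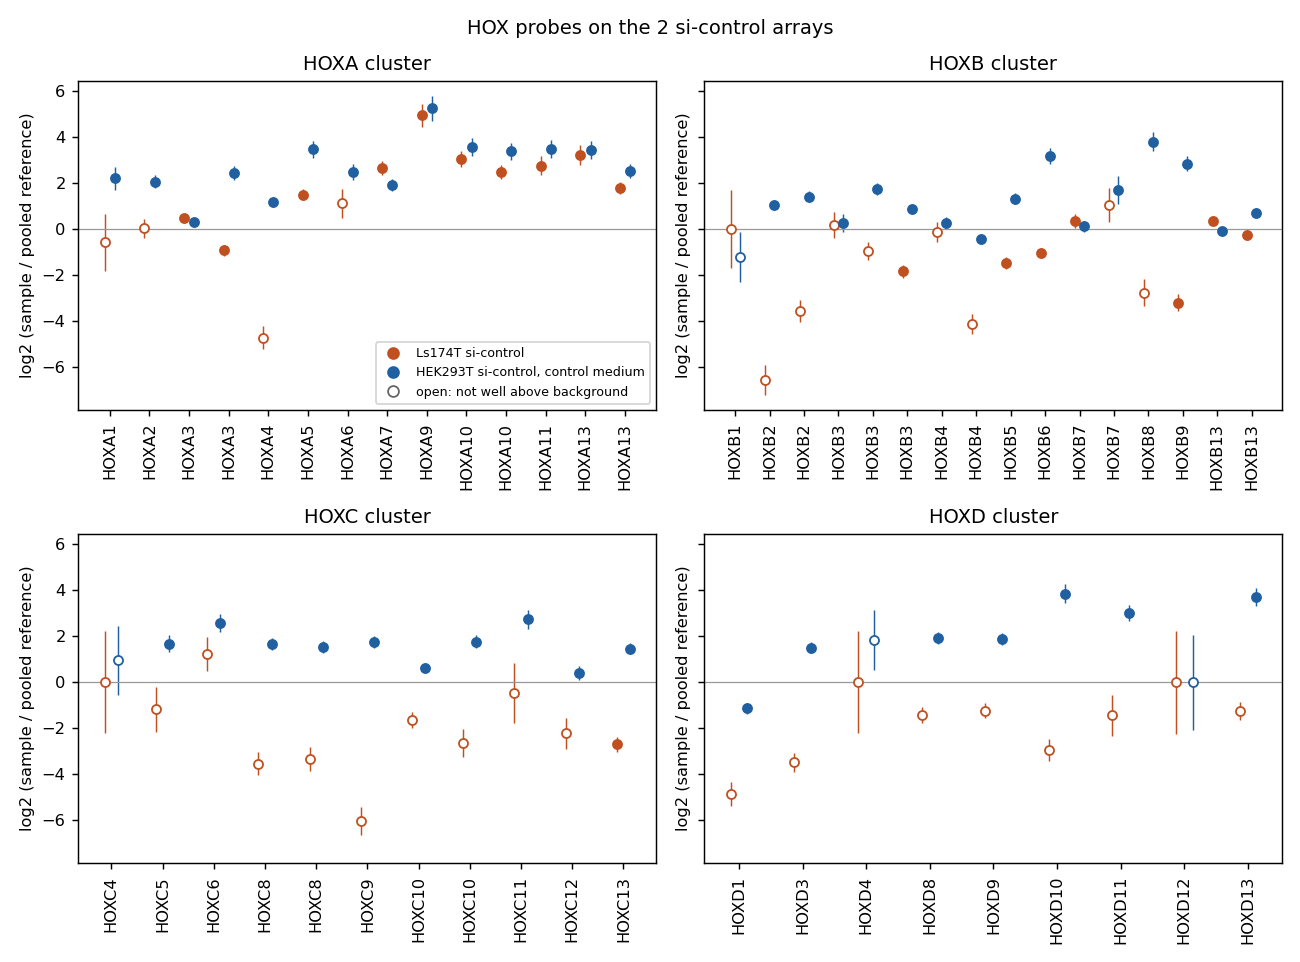
HOX probes on the Ls174T si-control array (orange) and the HEK293T si-control array in control medium (blue), by cluster and paralog number, as the log2 ratio of sample over pooled reference RNA with the program error. Open symbols are not well above background, and points are to be compared within a probe only. The lines lie close together for HOXA7 to HOXA13, while all cluster D probes of Ls174T are open.

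Of the 29 probes measured in both lines (23 genes), 20 were over 2-fold lower in Ls174T cells and 0 higher, beside 18.9% of all 25557 probes lower and 14.0% higher (32.9% together). The median difference was -3.35, against -0.03 for all probes. By cluster it was -0.64 in A, -3.72 in B, -4.86 in C and -3.74 in D, over 10, 9, 5 and 5 probes. With the filter on the sample channel, which asks for signal in both lines, 7 of 18 probes were lower, beside 12.8% of all, and 0 higher, with a median of -0.83. Of these 18, 1 lies in cluster C and 0 in D, so the C and D medians above rest on probes with no signal well above background in Ls174T cells, other than HOXC13.

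The posterior HOXA genes were within 2-fold between the lines. HOXA9, the homeodomain factor tied to MLL leukemia, had a ratio of 4.96 in Ls174T and 5.26 in HEK293T cells, a difference of -0.30 ± 0.75. Its neighbour HOXA7 was at 2.66 and 1.93, a difference of 0.73 ± 0.42. The 2 probes of HOXA10, which patterns the limb and the reproductive tract, differed by -0.52 and -0.89. Those of HOXA13, which patterns hindgut and digits, differed by -0.22 and -0.76, and HOXA11 by -0.72. None of these passed 2-fold. The HOXB7 probe A_23_P49810 and both HOXB13 probes, also above background in both lines, were within 2-fold as well, HOXB7 at a difference of 0.23 ± 0.38, though its probe did not pass the filter.

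Among anterior and middle HOXA genes, HOXA5 and HOXA4 were lower in Ls174T cells. HOXA5, active in lung and gut mesenchyme, was at 1.49 in Ls174T and 3.47 in HEK293T cells, a difference of -1.98 ± 0.46. HOXA4 was not well above background in Ls174T cells, at a ratio of -4.74 against 1.18. For such probes a lower bound is given, the mean log2 level of the brighter line against the higher of the probe's own level and the lowest signal well above background on the dimmer array, after quantile normalization of mean levels between arrays, and dye bias is not removed from it. It is left out where it exceeds the fold of the probe's own ratios, which are then given alone. HOXA4 was at least 50.3-fold lower. The probes of HOXA3 disagreed, with A_23_P501538 at -0.92 against 2.45 and A_23_P111571 at 0.46 against 0.30.

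In cluster B, HOXB9, a posterior gene, differed most among genes above background in both lines. It stood at -3.20 in Ls174T and 2.86 in HEK293T cells, a difference of -6.06 ± 0.49. HOXB6 followed with -1.05 against 3.18 (-4.23 ± 0.43), then HOXB5 with -1.47 against 1.33 (-2.80 ± 0.34) and 1 HOXB3 probe with -1.84 against 0.88 (-2.72 ± 0.34). HOXB2, a gene of the hindbrain, was not well above background in Ls174T cells, at -6.57 against 1.05 by its brighter probe, and was at least 9.65-fold lower by the other. HOXB8 was at least 30.0-fold lower, though its probe did not pass the filter. HOXB13, the most posterior gene of the cluster, is known from colon and prostate, and its 2 probes stood at 0.35 and -0.26 in Ls174T against -0.10 and 0.70 in HEK293T cells, so they differed in sign.

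In clusters C and D, HOXC13 was the member above background in both lines, at -2.71 against 1.45 (-4.16 ± 0.41). HOXC9 was at least 216-fold lower in Ls174T cells. HOXD10 was at -2.96 against 3.86. HOXD13, the digit gene at the posterior end of its cluster, was at -1.26 against 3.71 and HOXD11 at -1.44 against 3.03, though neither passed the filter. HOXD3 was at least 23.8-fold lower, the bounds of HOXC8, HOXD8 and HOXD1 ran from 5.52 to 9.67, and HOXD9 was at -1.25 against 1.87. HOXC4, HOXD4 and HOXD12 were not well above background on any array of either line, and HOXB1 was above background on the si-control Wnt3A array alone.

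Of the 39 genes, 20 have 27 promoter windows of 250 bases before to 50 bases after the start in RefSeq (GRCh38.p14), of 35116 windows of that length. Shown are HOXA9 and HOXA13, with signal in both lines, and HOXA4 and HOXD10, with signal in HEK293T cells but not in Ls174T si-control cells. The windows run 5′ to 3′ on the gene's strand, with every CpG in capitals. HOXA9 lies at chr7:27165488-27165787, HOXA13 at chr7:27200042-27200341 and HOXA4 at chr7:27130708-27131007, all on the minus strand, and HOXD10 at chr2:176116528-176116827 on the plus strand.
HOXA9: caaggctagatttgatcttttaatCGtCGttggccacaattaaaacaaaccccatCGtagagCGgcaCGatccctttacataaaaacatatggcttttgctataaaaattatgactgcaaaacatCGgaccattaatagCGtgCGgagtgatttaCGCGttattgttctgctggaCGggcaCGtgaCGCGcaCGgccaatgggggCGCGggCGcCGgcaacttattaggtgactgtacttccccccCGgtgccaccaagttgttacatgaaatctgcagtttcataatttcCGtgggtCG
HOXA13: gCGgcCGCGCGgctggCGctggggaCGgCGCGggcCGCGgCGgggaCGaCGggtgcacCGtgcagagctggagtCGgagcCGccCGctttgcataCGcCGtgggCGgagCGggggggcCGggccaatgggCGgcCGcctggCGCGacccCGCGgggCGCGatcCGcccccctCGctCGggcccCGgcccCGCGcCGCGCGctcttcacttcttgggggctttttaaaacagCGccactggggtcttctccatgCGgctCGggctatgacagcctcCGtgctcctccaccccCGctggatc
HOXA4: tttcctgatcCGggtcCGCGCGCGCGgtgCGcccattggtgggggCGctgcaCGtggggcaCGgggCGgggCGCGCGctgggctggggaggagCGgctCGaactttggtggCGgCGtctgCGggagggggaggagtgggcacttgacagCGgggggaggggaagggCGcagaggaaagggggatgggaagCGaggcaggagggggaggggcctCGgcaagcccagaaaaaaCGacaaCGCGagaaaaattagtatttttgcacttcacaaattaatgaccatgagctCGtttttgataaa
HOXD10: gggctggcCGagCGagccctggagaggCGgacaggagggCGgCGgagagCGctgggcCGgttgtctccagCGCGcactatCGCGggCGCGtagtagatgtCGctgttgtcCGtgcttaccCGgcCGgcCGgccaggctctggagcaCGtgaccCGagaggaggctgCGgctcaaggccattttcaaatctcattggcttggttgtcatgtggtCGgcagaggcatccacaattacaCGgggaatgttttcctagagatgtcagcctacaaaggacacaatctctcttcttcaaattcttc

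These windows hold 22, 44, 27 and 23 CpGs, and the median is 22 over the HOX windows and 14 over all. HOXA13 has the most, and 4.19% of all windows have at least 44. The 13 windows of 6 genes above background on the 4 Ls174T reference arrays and all 6 HEK293T arrays have a median of 21 CpGs. These genes all lie in cluster A, and most of the 13 windows belong to HOXA3 alone, with 0 to 29 CpGs. The 10 windows of genes above background on all HEK293T but not on all Ls174T reference arrays have a median of 26. The caudal core TTTATNG, searched on both strands, is in 25.9% of HOX windows and 9.73% of all, and the TATA box TATAAA in 18.5% and 11.5%, and their letters can overlap, as TATAAA after a C is also a caudal match. HOXC4 and HOXC5 share the same window, whose caudal match counts for each, and windows of HOXA3 hold others. In cluster B only HOXB1 has a window, so these shares do not cover the HOX genes evenly. The TCF core CTTTGA is in 14.8% of HOX windows and 12.9% of all. A match is a run of letters and no measured site.

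No HOX probe was called after MLLT10 depletion in Ls174T cells. Of 24 measured probes (20 genes) 0 were past 2-fold, beside 1.75% of all probes, with a median of -0.03 and a range of -0.96 to 0.70. At 1.5-fold, 3 were past the fold, 1 higher and 2 lower, and none of these 3 was above background on both arrays. The share of all probes past 1.5-fold is not given here. The HOXA9 ratio was 4.96 with si-control and 5.11 with MLLT10 siRNA, a change of 0.15 ± 0.74, and HOXA7 was at 2.66 on both arrays (-0.0050 ± 0.45). HOXA10 changed by 0.13 ± 0.50 and 0.17 ± 0.45. These differences are smaller than their program errors.

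In HEK293T cells with Wnt3A, MLLT10 depletion left most HOX ratios within 1.5-fold of si-control. Of 38 probes (30 genes) 2 were higher and 2 lower, 4 called beside 7.32% of all probes (3.51% higher and 3.81% lower). Changes were negative for 25 and positive for 34.2%, beside 50.4% of all probes positive, with a median of -0.21 against 0.00 for all. The MLLT10 array was the lowest of the 6 HEK293T arrays for 12 of the 42 probes above background on all 6, beside 13.5% of all such features. HOXA9 was at 5.23 with si-control and 5.02 after depletion, -0.21 ± 0.75. HOXB7 (probe A_23_P49810) went from 0.19 to 0.79, 0.60 ± 0.32, and HOXD9 from 1.58 to 2.17, 0.60 ± 0.38. HOXD11 went from 4.29 to 3.19, -1.10 ± 0.58, and HOXA11 from 4.22 to 3.51, -0.70 ± 0.63. In the sample channel alone none of the 4 was past the fold in the same direction.

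DOT1L depletion called 1 of 38 HOX probes, beside 5.62% of all (2.10% higher and 3.53% lower), and it was HOXD11. Its ratio went from 4.29 to 3.09, -1.20 ± 0.58. The median was -0.08, with 23 probes negative and 39.5% positive, beside 49.6% of all probes positive. HOXA9 went from 5.23 to 5.07, -0.16 ± 0.75, HOXA10 by -0.11 ± 0.55 and -0.39 ± 0.54, and HOXA7 from 1.67 to 2.25, 0.58 ± 0.39, just short of 1.5-fold. The HOXA7 sample channel went from 0.83 to 0.62 there, and its reference channel from -0.85 to -1.64. The MLLT10 and DOT1L arrays share a slide with the control medium array, where the medium differs too. Against it MLLT10 depletion had 2 higher and 3 lower probes with a median of -0.17, beside 4.08% and 3.66% of all probes, and DOT1L depletion 1 and 1 with a median of -0.09, beside 2.94% and 2.82%. MLLT10 and DOT1L arrays set against each other differed past the fold for 0 of 38 probes, with a range of -0.53 to 0.38, beside 1.99% of all probes higher and 1.64% lower.

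Wnt3A for 9 h called 3 of 38 HOX probes, beside 6.54% of all (3.77% higher and 2.77% lower). After normexp background correction (a model of signal plus background) and loess dye normalization it called 23, 21 of them higher, beside 27.8% of all, and with outlying backgrounds replaced in the same correction 0. HOXD11 went from 3.03 in control medium to 4.29, 1.26 ± 0.57, and HOXA11 from 3.49 to 4.22, 0.72 ± 0.62. HOXC8 (A_23_P398476) went from 1.68 to 1.07, -0.62 ± 0.36, while its other probe was at 1.53 and 1.52. HOXD11 and HOXA11 have limb and kidney roles. The HOXD11 ratio on the other 5 HEK293T arrays was 2.84 to 3.19, so the si-control Wnt3A array stood apart. There its reference channel was at -5.06, against -4.05 to -3.28 on the others, and its sample channel at -0.76, within -0.97 to -0.38 (log2 signal less the 75th percentile of the channel). In the sample channel alone the Wnt3A changes of HOXD11 and HOXA11 were -0.38 and -0.33. The same HOXD11 value enters each knockdown comparison of this line. The HOX median after Wnt3A was -0.03, against -0.01 for all probes.

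**Figure D2:**
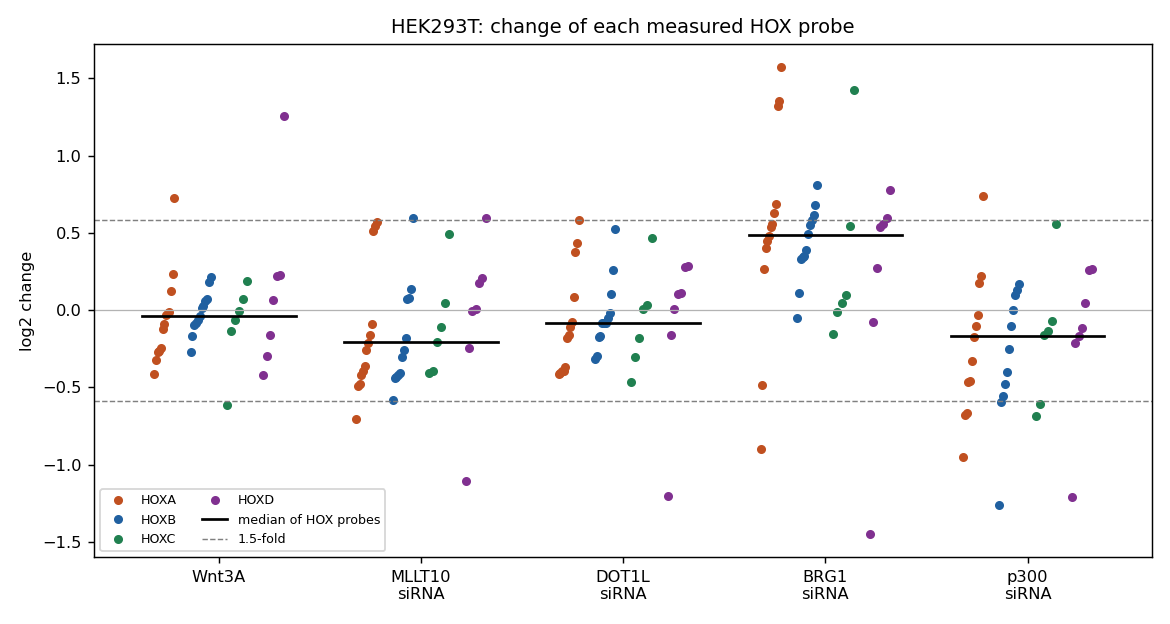
Log2 change of each measured HOX probe in the 5 HEK293T comparisons, coloured by cluster, with the median (black line) and 1.5-fold lines (dashed). The medians are -0.03, -0.21, -0.08, 0.49 and -0.16 from left to right, and the HOXD11 point is far out in each.

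Over the 6 HEK293T arrays, in the order control medium, Wnt3A, and Wnt3A with MLLT10, DOT1L, BRG1 and p300 siRNA, the smallest ranges belonged to HOXD10 and to 1 HOXC10 probe. HOXD10 was at 3.86, 4.08, 4.09, 3.92, 4.01 and 3.87, a range of 0.24. This small range holds for the ratio only. The HOXD10 sample channel ran from 1.39 on the p300 array to 2.67 on the BRG1 array, and its reference channel from -2.46 to -1.31. The HOXC10 probe (A_23_P36546) had a range of 0.26, HOXD13 of 0.34 and HOXB8 of 0.35, all among the 42 probes above background on all 6 arrays.

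Members called in a comparison varied more. HOXA6 was at 2.49, 2.08, 2.62, 2.51, 3.43 and 2.01 on the same arrays. HOXC9, a thoracic gene, was at 1.77, 1.63, 1.43, 1.45, 2.18 and 0.95, and HOXB5 at 1.33, 1.25, 0.66, 0.95, 2.06 and -0.02. HOXB6 was at 3.18, 3.21, 3.03, 3.12, 3.89 and 2.73. Each of these 4 genes was highest on the BRG1 and lowest on the p300 array.

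For other called members the lowest array was a different one. HOXA4 was at 1.18, 0.91, 0.55, 0.73, 1.60 and 0.74, highest on the BRG1 array and lowest on the MLLT10 array. HOXD9 was at 1.87, 1.58, 2.17, 1.85, 2.36 and 1.63, highest on the BRG1 array and lowest on the si-control Wnt3A array. HOXA11 was at 3.49, 4.22, 3.51, 3.80, 3.73 and 3.26, highest on the si-control Wnt3A array.

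In the deposited ratios, BRG1 depletion called more HOX probes than the other HEK293T comparisons, and more of them higher than lower. After normexp and loess it called 4 higher and 10 lower, fewer in all than the 23 after Wnt3A. The share of all probes called by BRG1 depletion under that setting is not given here. In the deposited ratios, of 38 probes (30 genes) 11 were called higher and 2 lower, beside 10.4% of all probes higher and 11.7% lower (22.0% together). Changes were positive for 31 of 38, beside 51.6% of all probes. The median was 0.49 against 0.02 for all probes, 0.54 in cluster A, 0.44 in B, 0.07 in C and 0.54 in D. Over the 42 probes above background on all 6 HEK293T arrays, the BRG1 array was the highest for 30, beside 30.4% of all such features.

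Within cluster A, HOXA7, HOXA6 and HOXA9 had the largest increases. HOXA7 went from 1.67 on the si-control Wnt3A array to 3.24, 1.57 ± 0.45, with 1.93 to 2.41 on the other 4 arrays. HOXA6 went from 2.08 to 3.43, 1.36 ± 0.53, and HOXA9 from 5.23 to 6.55, 1.32 ± 0.85, with 5.02 to 5.40 on the others. By ratio, these 3 genes were higher on the BRG1 array than on every other HEK293T array. The HOXA7 sample channel was lowest there, at 0.00, against 0.11 to 0.84 on the others. HOXA4 changed by 0.69 ± 0.33 and HOXA2, a gene of hindbrain and branchial arches, by 0.63 ± 0.42.

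In cluster B, HOXB5 went from 1.25 to 2.06, 0.81 ± 0.36, HOXB6 changed by 0.68 ± 0.55 and 1 HOXB4 probe by 0.61 ± 0.29. HOXC8 (A_23_P398476) went from 1.07 to 2.49, 1.42 ± 0.41, but its other probe from 1.52 to 1.57. HOXC6, well above background on both arrays but outside the main filter, had a larger change, from 2.34 to 4.11. Its sample channel went from -4.74 to -4.27 and its reference channel from -7.09 to -8.35. HOXD9 and HOXD3 changed by 0.78 ± 0.39 and 0.60 ± 0.34. The 2 lower probes were HOXD11, from 4.29 to 2.84, and HOXA3 A_23_P111571, from 0.42 to -0.48 (-0.90 ± 0.29), while the other HOXA3 probe went from 2.44 to 2.84. The posterior HOXA13, HOXB13, HOXC13 and HOXD13 changed by -0.15 to 0.44.

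The direction of this shift turned with 1 background treatment. In the sample channel alone, 18 probes were higher and 4 lower, and 7 of the 11 higher calls were among them. The HOX median there was 0.57, against -0.13 for all probes. HOXA9 went from 2.13 to 2.80 there, while its reference channel went from -3.11 to -3.72, but HOXA7 from 0.83 to 0.00, while its reference channel was at -0.85 on the si-control Wnt3A array and -3.21 on the BRG1 array. After normexp background correction and loess the median was -0.27, and HOXA9, HOXA7, HOXA6, HOXC8, HOXA2 and HOXD9 turned negative. With background outliers replaced in the same correction, 16 were higher and 2 lower. The counts in this paragraph stand without the share of all probes, so they do not set HOX probes apart from the rest.

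Other comparisons of the BRG1 array, also in the deposited ratios, had more HOX probes higher than lower. Each reuses that array's own values, its low reference signals included, so they cannot check the turn with background treatment. Against the p300 array of the same slide, 20 of 36 probes were higher and 1 lower, with a median of 0.67, beside 10.6% and 9.69% of all probes. Against the control medium array, where the medium differs too, 9 were higher and 1 lower of 39, with a median of 0.39, beside 7.03% and 7.63% of all probes.

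p300 depletion in HEK293T cells called 8 HOX probes lower and 1 higher of 36 (28 genes), beside 7.90% of all probes lower and 4.17% higher (12.1% together). The median was -0.16 against 0.01 for all probes. In the sample channel alone, 3 of the 8 lower calls and 0 of the 1 higher call were past the fold in the same direction. HOXB5 had the largest decrease, from 1.25 on the si-control Wnt3A array to -0.02, -1.26 ± 0.31, and was at 0.66 to 2.06 on the other 4 arrays, so the p300 array was the lowest. Its sample channel fell from 0.19 to -1.27. HOXC9 changed by -0.69 ± 0.34, 1 HOXA3 probe by -0.68 ± 0.40, 1 HOXA13 probe by -0.66 ± 0.57, HOXC13 by -0.61 ± 0.34 and 1 HOXB3 probe by -0.59 ± 0.30.

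HOXD11 (-1.21) and HOXA11 (-0.95) were lower as well, and both carry the high si-control Wnt3A value given above. HOXA7 was the higher probe, from 1.67 to 2.41, 0.74 ± 0.40. That si-control ratio was the lowest of the 6 arrays. The HOXA7 sample channel was at 0.83 and 0.84 on the si-control Wnt3A and p300 arrays, and its reference channel at -0.85 and -1.56. The p300 array was the lowest of the 6 for 17 of the 42 probes, beside 17.4% of all features. Against control medium 7 probes were lower and 0 higher, beside 6.69% and 4.47% of all.

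**Figure D3:**
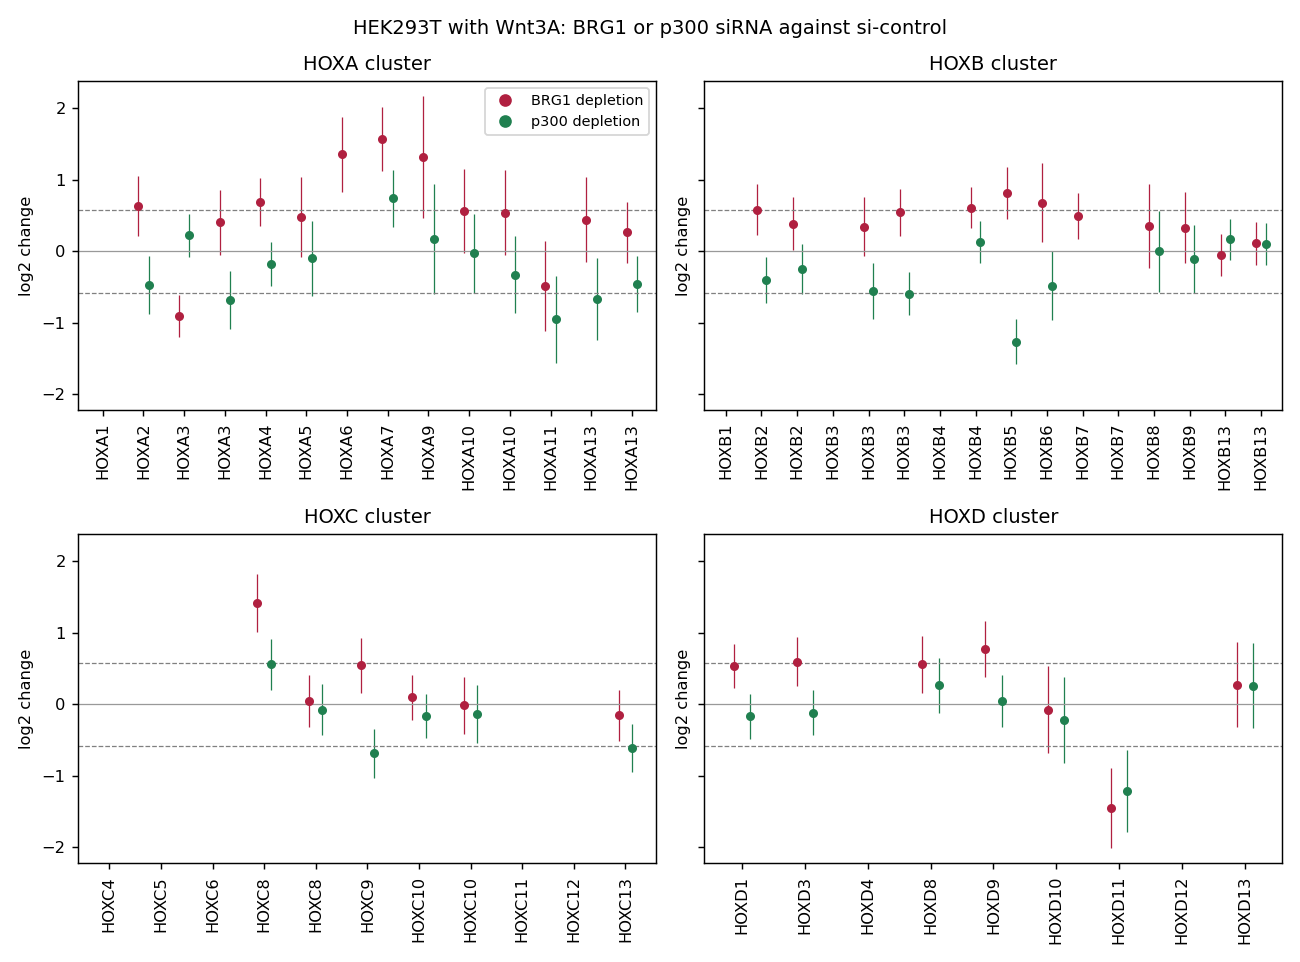
Log2 change of each measured HOX probe after BRG1 (red) or p300 (green) depletion in HEK293T cells with Wnt3A, with the program error, by cluster and paralog number. A gene without a point did not pass the filter, dashed lines are 1.5-fold, and both comparisons share the si-control array. HOXA6, HOXA7 and HOXA9 peak after BRG1 depletion at 1.36, 1.57 and 1.32, and HOXB5 lies at 0.81 and -1.26.

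**Figure D4:**
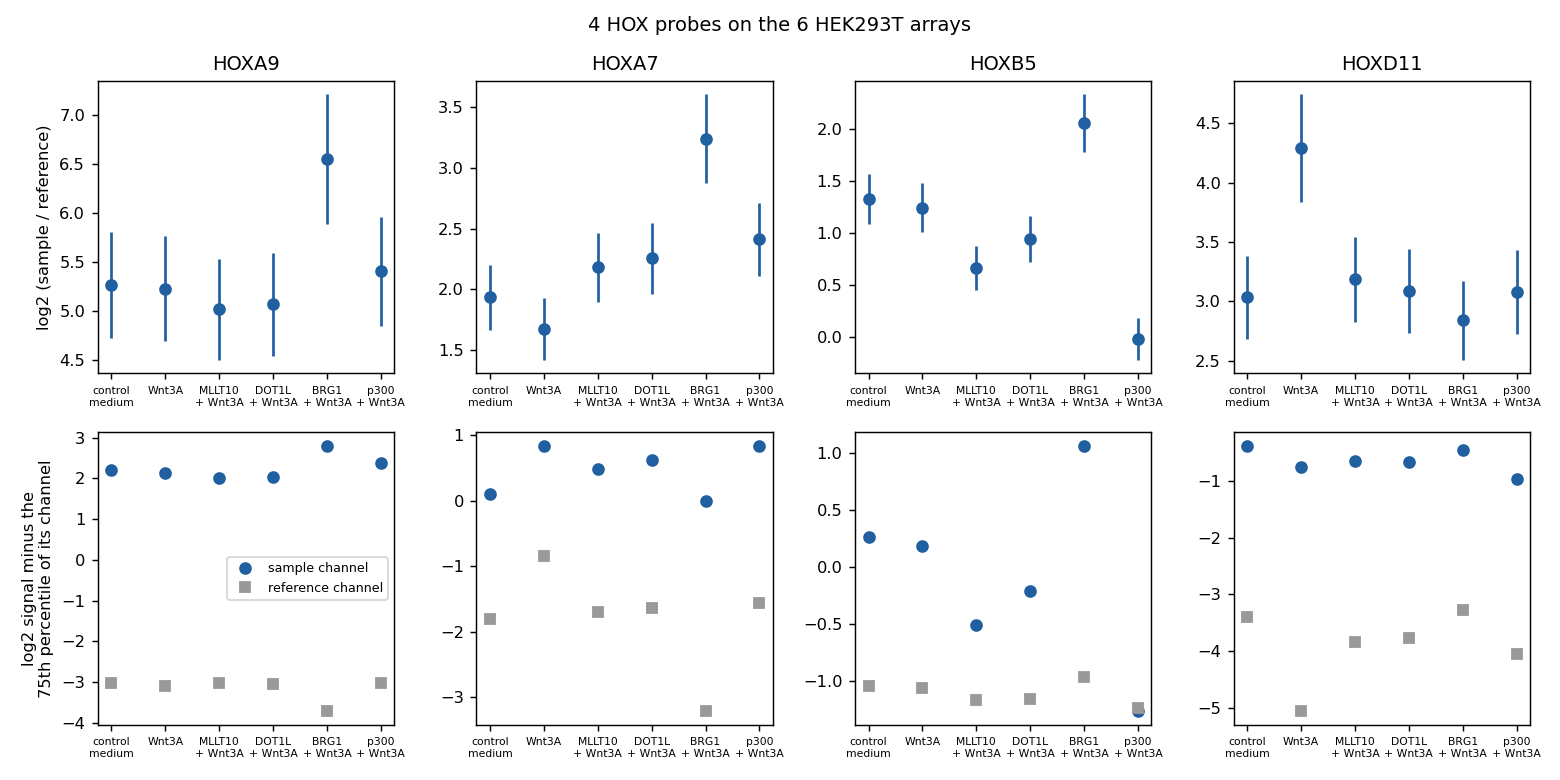
The HOXA9, HOXA7, HOXB5 and HOXD11 probes on the 6 HEK293T arrays, as log2 ratio with program error (top) and as the log2 signal of each channel less its 75th percentile (bottom). HOXA9 is highest on the BRG1 array in ratio and in sample channel, and its reference signal is lowest there, and the HOXA7 and HOXD11 peaks lie at a low reference signal too.

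In Ls174T cells neither BRG1 nor p300 depletion called a HOX probe among those above background on both arrays. With the main filter, BRG1 depletion had 3 higher of 24 probes (19 genes), beside 5.21% of all probes (3.75% higher and 1.46% lower), with a median of 0.22. They were HOXD9 (-1.25 to 0.14), HOXB2 by 1 probe (-3.56 to -2.36) and HOXD1 (-4.88 to -3.74). p300 depletion had 6 higher of 28 (23 genes), beside 5.76% (4.09% higher and 1.67% lower), with a median of 0.45. They were HOXA4 (-4.74 to -2.92), HOXD10, HOXD9, HOXD1, HOXB2 and HOXD3. No called probe was well above background on the si-control array. Of the 3 BRG1 calls, HOXD9 alone was well above background on the BRG1 array.

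On the 4 Ls174T arrays, in the order si-control, MLLT10, BRG1 and p300 siRNA, HOXD9 was at -1.25, -0.75, 0.14 and 0.06. HOXA4 was at -4.74, -4.04, -4.01 and -2.92, and HOXD10 at -2.96, -2.63, -1.68 and -1.62. HOXA4 was well above background on the BRG1 and p300 arrays only, HOXD9 on all but the si-control array and HOXD10 on none, so their order is not read. HOXA9 and HOXA7, well above background on all 4 arrays, stayed at 4.96 to 5.11 and 2.58 to 2.66.

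After p300 depletion HOXA4 was at least 2.33-fold and HOXB2 at least 1.88-fold higher. HOXD1, HOXD3 and HOXD10 were not well above background on either array. The sample channel was above background for 76.3% and 72.0% of features on the BRG1 and p300 arrays against 63.8% on the si-control array, both lay on another slide than it, and the part of this in the result was not tested. With the sample channel filter 0 of 18 probes were called in each, beside 1.92% and 2.51% of all probes, and HOXA9 was at 5.02 and 5.02 against 4.96.

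β-Catenin depletion in Ls174T cells left 10 measured HOX probes (8 genes) with 0 called, beside 5.66% of all probes. The median was 0.26, from -0.54 to 0.69. HOXB13 by 1 probe (0.69 ± 0.15) and HOXB9 (0.58 ± 0.15) were the largest increases and did not pass 2-fold. Without dye-swap array 2, 1 of 15 probes was called higher, and without array 1, 0 of 11.

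Of 52 listed HOX cofactors and regulators 49 were on the array, with 87 probes. The TALE cofactors PBX and MEIS, which bind DNA with HOX proteins, were lower in Ls174T than in HEK293T cells for 6 of 12 measured probes and higher for 0, and with the sample channel filter for 3 of 10. MEIS1 differed by -2.01 and PBX3 by -2.36, and the 2 MEIS2 probes were not above background in Ls174T cells. Over all regulators 11 of 68 probes were lower and 4 higher, beside 18.9% and 14.0% of all probes.

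The regulators were also set against the same controls as the HOX genes. MLLT10 depletion in HEK293T cells called 2 of 70 higher and 2 lower, beside 7.32% of all probes called, among them KMT2A (MLL), 0.62, and MLLT10 itself. DOT1L depletion called 2 higher, both KMT2A probes (0.62 and 0.73), and 3 lower of 77, DOT1L by 2 probes and MEIS3, beside 5.62% of all. BRG1 depletion called 7 higher and 5 lower of 69, beside 22.0% of all probes called, with both probes of the Polycomb gene BMI1 higher (0.69 and 0.98) and PBX2 lower (-1.17). p300 depletion called 0 higher and 4 lower of 68, beside 12.1% of all, among them BMI1 by 1 probe (-0.69) and AFF1. In Ls174T cells 1 of 68 was lower after MLLT10 depletion, MLLT10 itself, beside 1.75% of all, and 0 of 71 were called after BRG1 depletion, beside 5.21%, while Wnt3A in HEK293T cells called 1 of 73, an MLLT10 probe (-0.60), beside 6.54%, and β-catenin depletion 0 of 49, beside 5.66%.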

How the data were processed

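The data are 12 dual-colour Agilent 4x44K arrays, with intensities read by the Agilent Feature Extraction program, version 8.5.1.1 in the submitters' processing notes and 10.5.1.1 per the file headers. The processed intensities deposited per spot and channel are background-subtracted and dye-normalized, and the deposited log10 ratios are processed Cy5 over Cy3 signal, each with a program error. The deposited table of values holds the same log10 ratios with 1 array of the dye-swap pair turned. The deposited program error is a score that its error model computes for each log10 ratio. Log10 ratios were put on the log2 scale here with the sample (or β-catenin-depleted) RNA as numerator, and the β-catenin pair's 2 arrays were averaged. The Cy3 sample and Cy5 reference orientation comes from the labels. Changes are differences between arrays, with program errors added in quadrature.

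A probe entered a comparison if on each of its arrays 1 of the channels was over 2-fold its local background and no outlier was marked, after the study's methods, with 2-fold (Ls174T) and 1.5-fold (HEK293T) as the fold threshold. No HOX spot was marked or saturated (0 and 0). The files give accessions only, and a RefSeq table gave symbols to 94.9% of the 29084 features that carry such an accession. Its assembly differs from that of the array annotation, so no gene coordinates are given other than those of the RefSeq promoter windows.

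With 1 biological replicate per condition, the number of arrays limits the precision, and no test was made. Alternatives were normexp (offset 50) and loess in limma 3.58.1 (R 4.3.3), the deposited table, the sample channel alone less its 75th percentile, median centring, other filters, folds and control arrays. The replacement of outlying backgrounds, the control medium array for BRG1 and p300, and the p300 array for BRG1 were added after seeing the data. The HOX members and the regulator and marker lists were chosen with earlier results of these data known. Genes were named where they passed the fold in a comparison of their line, with the other members given by range and count. Members named without passing it (HOXA9, HOXA7 and HOXA10 after MLLT10 or DOT1L depletion, HOXB9 and HOXB13 after β-catenin depletion, the posterior HOXA genes between the lines, and members named for a small range) were chosen after their values were seen. Only the calling step was tested on simulated data, with set changes past the fold, so the background and normalization steps were not covered. Results for some listed genes are not reported here.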

Additional observations from a re-analysis of the deposited data

Results flagged for a closer look

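p300 depletion gave HOX medians of opposite sign in the 2 lines. Over the 28 HOX probes measured in both, the median was 0.45 in Ls174T and -0.16 in HEK293T cells, 0.609 apart, and 18 probes were positive in Ls174T and negative in HEK293T cells while 2 were the other way. Over the 18 probes with the sample channel above background on all arrays compared, the medians were 0.18 and -0.22. With 1 array per condition the difference was not tested, and the Ls174T probes called were not well above background on their control array.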

How the results depend on the processing

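No paired analysis was possible because each condition has 1 biological replicate. Of 102 counts of called HOX probes under an alternative, 66 stayed within 1.5 times the count reported, and 10 of 102 medians changed sign. The cause of each change was not tested, apart from what an alternative itself changes, and dim probes limit the Ls174T comparisons.

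Without the filter on dim probes, called HOX probes were 2 after β-catenin, 5 after MLLT10 and 8 after BRG1 depletion in Ls174T cells, 8 after Wnt3A, 10 after MLLT10 and 6 after DOT1L depletion in HEK293T cells, and 34 between the lines. With the other line's fold they were 1, 3 and 6 for the same Ls174T comparisons, and 1 after Wnt3A, 1 after MLLT10, 5 after BRG1 and 2 after p300 depletion in HEK293T cells. With the sample channel filter they were 0 after BRG1 and 0 after p300 depletion in Ls174T cells, 5 after Wnt3A, 3 after DOT1L depletion and 7 between the lines. With normexp and loess they were 9 after BRG1 depletion in Ls174T cells, 23 after Wnt3A (21 higher), 1 after MLLT10 and 0 after DOT1L depletion, and with outlying backgrounds replaced 0 after BRG1 and 0 after p300 depletion in Ls174T cells, 0 after Wnt3A, 1 after MLLT10 and 0 after DOT1L depletion. In the sample channel alone they were 6 after Wnt3A, 2 after DOT1L and 22 after BRG1 depletion. Against the mean of the other 3 knockdown arrays they were 20 after BRG1 and 5 after p300 depletion, against control medium 2 after DOT1L depletion, and against the p300 array 21 after BRG1 depletion. Leaving out an array of the β-catenin pair gave 0 to 1. Except where a share of all probes was given above, these counts stand without one. A change in count is thus not read as a change of HOX probes alone.

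Of 553 values of single named probes, 29 changed sign. With normexp and loess these were HOXC8 (0.25) after Wnt3A, HOXA11 after MLLT10 (0.029) and p300 (0.11) depletion, and HOXA2 (-0.32), HOXA6 (-0.22), HOXA7 (-0.15), HOXA9 (-0.75), HOXC8 (-0.078) and HOXD9 (-0.23) after BRG1 depletion in HEK293T cells. With outlying backgrounds replaced they were HOXB2 (-0.10) after p300 depletion in Ls174T cells and HOXA11 after Wnt3A (-0.33), MLLT10 (0.038) and p300 (0.12) depletion. In the sample channel alone they were HOXA11 (-0.33) and HOXD11 (-0.38) after Wnt3A, HOXB7 (-0.42) and HOXD11 (0.12) after MLLT10, HOXD11 after DOT1L (0.094) and BRG1 (0.29), HOXA7 (-0.83) after BRG1 and HOXA11 (0.083) after p300 depletion. Against the mean of the other 3 knockdown arrays they were HOXD11 after MLLT10 (0.18), DOT1L (0.051) and p300 (0.045) and HOXA7 after p300 depletion (-0.15), and against control medium HOXD11 after MLLT10 (0.15), DOT1L (0.053) and p300 (0.049) and HOXA11 after MLLT10 depletion (0.020).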
